A study of Mus musculus with 12 samples.

Results

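The genes described here are those with their highest signal in embryoid bodies that formed from mouse lung endothelial cells lacking CD47, the cell surface receptor for thrombospondin-1 and SIRP alpha. Each gene was given 1 log2 signal per array, and group means over 3 arrays were compared. A gene was taken when its embryoid body mean lay at least 0.7 log2 units, or 1.62-fold, above the mean of each of the 3 other groups. Klf4, Slc40a1 and Cd53 met this margin but were set aside, which left 68 of 19938 genes. The genes were thus selected on their group means in all 4 groups, and the distance of the embryoid bodies from the other groups is given below as a description, without a test.

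Expression was measured on 12 whole-transcript arrays, 3 in each of 4 groups. The null_EB group held embryoid bodies, which are floating balls of cells, made from C57Bl/6 lung endothelial cells with the Cd47 gene deleted, per the labels. These cells had been passaged for 6 months, and the bodies appeared 24 to 36 h after a change to basal endothelial medium without serum. The null_EC group held Cd47 null C57Bl/6 lung endothelial cells in the endothelial growth medium EGM2, and the WT_EC group held wild-type C57Bl/6 lung endothelial cells in EGM2. The ESC group was V6.5, an established mouse embryonic stem cell line, kept in DMEM with 15% serum and 1000 IU/ml of LIF, a cytokine that holds such cells undifferentiated. The 2 null groups thus share the Cd47 deletion, and medium and growth form differ along with the group. A passage time is given for null_EB alone. The labels do not say that the arrays of a group came from separate cultures or animals, so every p-value below measures the spread between these samples, which may be technical.

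The labelled cell types were set against marker genes. Median signal of 13 pluripotency markers was 6.62 to 6.72 over the null_EB arrays and 10.8 to 11.2 over the ESC arrays. Endothelial markers had low medians of 7.04 to 7.11 in null_EB and 7.23 to 7.27 in null_EC, with 6.97 to 8.0 in WT_EC and 7.36 to 7.42 in ESC. Pecam1 averaged 6.56 in null_EB and 6.59 in null_EC. The endothelial label was thus not borne out by the median of these markers in either null group, and the WT_EC range overlapped with both. Kdr, the VEGF receptor, was the exception in null_EC, at 10.70, with 7.34 in null_EB. Mesothelial markers were high, with medians of 10.6 to 10.8 in null_EB, 11.6 to 11.7 in null_EC and 10.53 to 11.68 in WT_EC. Fibroblast and smooth muscle markers were high too, with medians of 9.9 to 10.1 in null_EB and 10.24 to 10.89 in null_EC. Their medians were 10.56 to 11.47 in WT_EC and 10.37 to 10.47 in ESC, where mesothelial markers lay at 7.67 to 7.83. The mesothelial medians thus set the null groups and WT_EC apart from ESC, whereas the fibroblast and smooth muscle medians were high in every group. Msln averaged 12.01 in null_EB, 12.14 in null_EC, 11.67 in WT_EC and 7.84 in ESC. Upk3b averaged 12.13 in null_EB, 13.05 in null_EC, 11.95 in WT_EC and 7.75 in ESC. The identity of the cells in the null groups was not tested. Cd47 itself, the deleted gene, averaged 10.94 in null_EB, 11.03 in null_EC, 12.12 in WT_EC and 11.17 in ESC, so the groups labelled Cd47 null kept a signal close to that of ESC. Whether the probe set lies outside the deleted stretch is not given in the sources used here, so this signal does not check the label. The WT_EC arrays were uneven: the leukocyte marker median was 6.72 on the lowest of them and 9.01 on array 3. None of these shifts can be told apart from a change in RNA per cell, since bulk arrays do not separate fewer cells of a type from less RNA in each. Leukocyte markers in null_EB lay at 6.68 to 6.82, against 6.75 to 6.98 in null_EC, and the 1 called higher of the 19 was Cd53, one of the genes set aside.

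Some genes of the set belong to processes with well known biology. Glutathione synthesis starts with cystine import through Slc7a11 and with the enzyme whose catalytic subunit is Gclc, and glutathione S-transferases and glucuronosyltransferases attach bulky polar groups to reactive or foreign compounds so that transporters can export them. Many genes of this kind are controlled by NRF2, a transcription factor held inactive by KEAP1 until electrophiles or oxidants release it. Proliferins are secreted hormones of the prolactin family, known in the mouse from the placenta and from growth-stimulated fibroblasts.

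The margin between the embryoid body mean and the next highest group mean had a median of 0.93 log2 units over the 68 genes. It reached 1 in 31 genes and 2 in 4 genes, which were Prl2c5, Nxf3, Ugt2b34 and Slc22a23. Against null_EC, the cells in a monolayer with the same deletion, the difference had a median of 1.09 and ran between 0.70 and 3.50, and 43 genes were at least 2-fold higher. The median difference was 1.24 against WT_EC and 1.67 against ESC. In 56 of the 68 genes all 3 embryoid body arrays lay above all 9 other arrays, a pattern found in 5.23% of all genes. The next highest group was null_EC for 39 genes, WT_EC for 19 and ESC for 10. The same margin of 0.7 was met by 71 genes for null_EB before the removal of 3, by 176 for null_EC, by 431 for WT_EC and by 2095 for ESC.

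**Figure D1:**
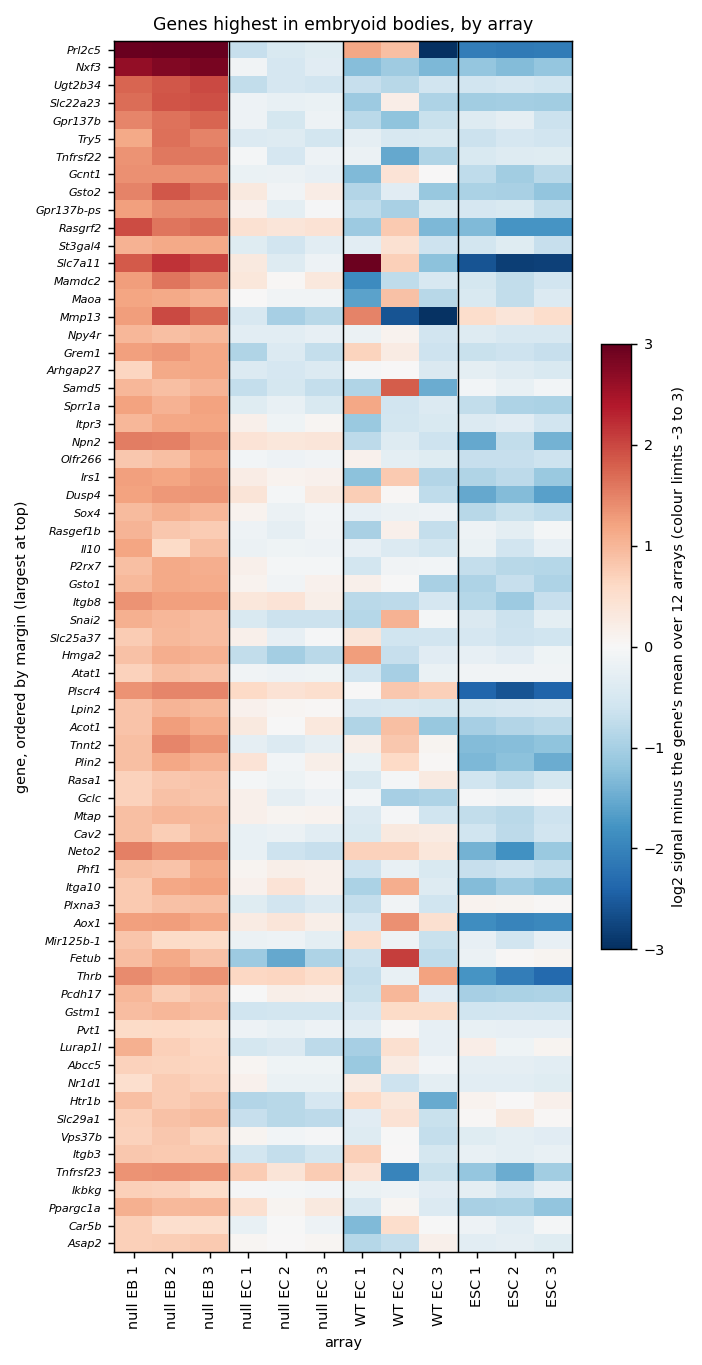
Log2 signal of the 68 genes (rows, largest margin at the top) on each of the 12 arrays (columns, by group), as the difference from the gene's mean over all arrays. Colours stop at -3 and 3. The 3 null_EB columns are high in every row, and the WT_EC columns are the most uneven.

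Replicates were close in 3 groups and loose in the fourth. The median SD over these genes was 0.10 in null_EB, 0.11 in null_EC, 0.56 in WT_EC and 0.10 in ESC, against 0.08, 0.07, 0.21 and 0.08 over all genes. Membership depended little on a single array for most genes: 43 of the 68 kept the margin whichever array was left out, and Car5b, the least stable, kept it in 7 of 12 cases. Just inside the margin stood Asap2 (0.70), Car5b (0.71), Ppargc1a (0.72), Ikbkg (0.72) and Tnfrsf23 (0.72). Just outside were Faxc (0.70, short of the margin before rounding), Mir221 (0.69), Tmtc2 (0.68), Anxa8 (0.68) and Btg1 (0.67). Among the genes set aside, Klf4 averaged 10.37 in null_EB and at most 9.45 elsewhere, Slc40a1 9.86 and at most 8.93, and Cd53 10.02 and at most 9.16.

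The secreted proteins and proteases held the largest margin of all. Prl2c5, a proliferin, had 11.12, 11.15 and 11.20 on the null_EB arrays, against 7.46, 7.70 and 7.79 in null_EC, 9.31, 9.06 and 4.95 in WT_EC, and 6.10, 6.03 and 6.08 in ESC. All embryoid body arrays were higher than every other array, and the third WT_EC array was the lowest of the 12. The means put null_EB 11.3-fold above null_EC, 10.4-fold above WT_EC and 34-fold above ESC. To show the stretch in front of the gene with the largest margin, the 250 bases before the RefSeq start of Prl2c5 (chr13:13182466-13182715, plus strand of GRCm38.p6) are printed 5′ to 3′, with capitals reserved for matches to the motifs named further on, of which it holds none.
Prl2c5: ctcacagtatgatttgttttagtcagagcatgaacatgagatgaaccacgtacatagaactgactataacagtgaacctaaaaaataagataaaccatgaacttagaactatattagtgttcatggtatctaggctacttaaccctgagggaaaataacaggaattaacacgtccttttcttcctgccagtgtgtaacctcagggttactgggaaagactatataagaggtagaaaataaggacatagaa

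Prl2c5 lies on chromosome 13 in a run of proliferin genes flanked by Gpr137b-ps and Gpr137b, both also among the 68. Gpr137b encodes a membrane protein of the lysosome, and Gpr137b-ps is annotated as its transcribed pseudogene. Gpr137b had 11.02, 11.18 and 11.30 in null_EB, against 9.40, 9.03 and 9.41 in null_EC, 8.74, 8.36 and 8.89 in WT_EC, and 9.18, 9.29 and 8.90 in ESC. Gpr137b-ps averaged 11.59 ± 0.10 in null_EB, 10.16 ± 0.21 in null_EC, 9.50 ± 0.25 in WT_EC and 9.67 ± 0.15 in ESC (SD, n = 3 each). Both were separate from all 9 other arrays. A probe set shared by Prl2c2, Prl2c3 and Prl2c4, which the gene table could not give to 1 gene, averaged 9.88 in null_EB, 5.92 in null_EC, 6.57 in WT_EC and 4.54 in ESC. Of the neighbours outside the run, Edaradd averaged 7.03 in null_EB and 7.05 in null_EC, and Ero1b 8.42 and 8.55. Nid1 averaged 10.78 in null_EB, above the 9.75 of null_EC, but was highest in WT_EC at 12.24. Proliferins are near-identical copies, as are Gpr137b and its pseudogene, so signal may be shared between these probe sets, and this was not tested. Elsewhere in the family, 16 other prolactin-type genes with a probe set of their own had margins between -1.38 and 0.13.

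**Figure D2:**
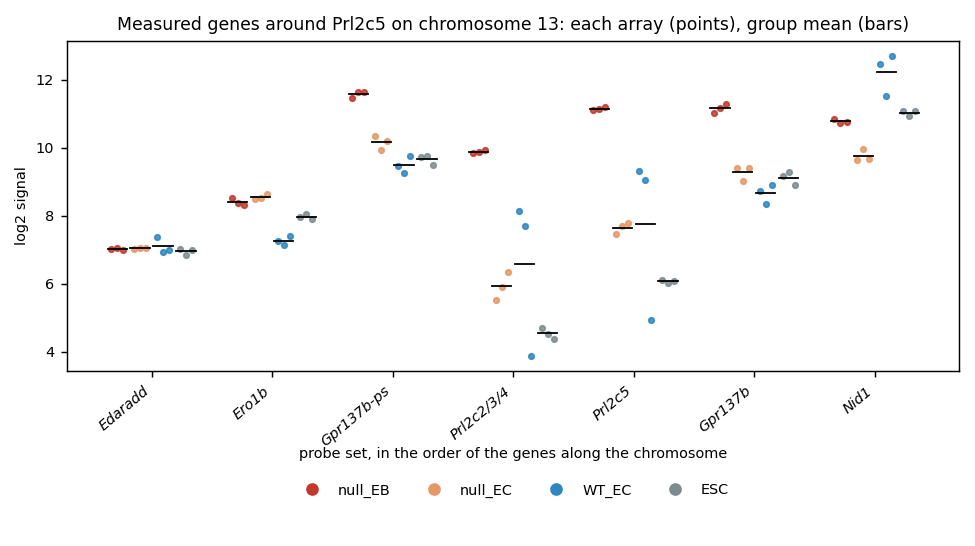
Log2 signal of the measured probe sets around Prl2c5, in the order of the genes on chromosome 13, for each array (points) and group mean (bars). Gpr137b-ps, the shared Prl2c2/3/4 probe set, Prl2c5 and Gpr137b are highest in null_EB, whereas Edaradd and Ero1b are highest elsewhere and Nid1 is highest in WT_EC.

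Mmp13, or collagenase 3, an enzyme that cuts fibrillar collagen, had 11.11, 11.84 and 11.57 in null_EB, against 9.36, 8.84 and 9.01 in null_EC, 11.34, 7.25 and 6.88 in WT_EC, and 10.38, 10.22 and 10.39 in ESC. The first WT_EC array reached into the embryoid body range, and the other 2 were the lowest of the 12. Of the other measured matrix metalloproteinases, Mmp2 averaged 10.28 in null_EB and 11.74 in null_EC, and Mmp14 averaged 12.09 and 12.05. The promoter of Mmp13 is printed because 3 of the motifs searched fall within it: chr9:7272264-7272513, plus strand of GRCm38.p6, from RefSeq. Capitals mark a forkhead core on the opposite strand starting 81 bases before the start, an AP-1 site 35 bases before it and a TATA box 16 bases before it.
Mmp13: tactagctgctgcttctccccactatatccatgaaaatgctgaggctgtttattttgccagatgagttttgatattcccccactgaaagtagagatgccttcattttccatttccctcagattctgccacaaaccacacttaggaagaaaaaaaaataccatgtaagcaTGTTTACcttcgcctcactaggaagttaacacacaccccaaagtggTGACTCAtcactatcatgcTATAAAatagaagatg

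Grem1, a secreted antagonist of bone morphogenetic proteins, had 11.51, 11.59 and 11.45 in null_EB, against 9.37, 9.86 and 9.55 in null_EC, 10.95, 10.54 and 9.67 in WT_EC, and 9.61, 9.66 and 9.58 in ESC. Try5, a trypsin, had 9.20, 9.72 and 9.55 in null_EB and between 7.41 and 7.79 on the other 9 arrays. Mamdc2, a secreted matrix protein, had 10.09, 10.44 and 10.24 in null_EB, against 9.16, 8.87 and 9.13 in null_EC. Its WT_EC values were 6.94, 8.07 and 8.35, and its ESC values 8.30, 8.09 and 8.26. Fetub, a secreted inhibitor of astacin proteases, averaged 9.22 in null_EB and 7.06 in null_EC, but the second WT_EC array, at 10.32, exceeded every embryoid body array. Its 8.47 ± 1.60 in WT_EC (SD, n = 3) therefore overlapped with null_EB.

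Roles were assigned to the 68 genes after their selection, and the share of each role among all genes was not counted. By these roles, detoxification and glutathione genes formed the largest group apart from mixed signalling proteins. It held 8 genes, against 7 nuclear factors and RNA export genes. The 8 detoxification and glutathione genes differed from null_EC by 0.88 to 2.47 log2 units, with a median of 1.36. Ugt2b34, a UDP-glucuronosyltransferase, had 8.30, 8.43 and 8.54 in null_EB. It had 5.82, 6.05 and 5.99 in null_EC, 5.86, 5.73 and 5.98 in WT_EC, and 5.99, 6.06 and 5.96 in ESC, so that the 9 other arrays lay close together. Its mean in null_EB was 5.53-fold above null_EC. None of the other 7 measured Ugt2 genes had a margin above 0.08, and of 10 glucuronosyltransferases other than Ugt2b34, 0 were called in null_EB against null_EC by limma, with 0 at an unadjusted p below 0.05 and 0 called without the WT_EC arrays. Its RefSeq upstream window (chr5:86906938-86907187, minus strand of GRCm38.p6) is shown as that of the most selective enzyme here and holds none of the motifs.
Ugt2b34: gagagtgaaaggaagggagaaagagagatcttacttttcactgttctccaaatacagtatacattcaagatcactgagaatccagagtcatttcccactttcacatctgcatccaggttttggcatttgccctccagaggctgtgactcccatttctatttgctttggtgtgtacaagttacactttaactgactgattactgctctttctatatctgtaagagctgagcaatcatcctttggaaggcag

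Gsto1 and Gsto2, the omega-class glutathione S-transferases, are direct neighbours on chromosome 19. Gsto2 had 9.64, 10.01 and 9.85 in null_EB, against 8.46, 8.06 and 8.38 in null_EC, 7.29, 7.81 and 7.03 in WT_EC, and 7.21, 7.18 and 6.97 in ESC. Gsto1 had 11.60, 11.75 and 11.74 in null_EB, against 10.73, 10.51 and 10.73 in null_EC, 10.75, 10.59 and 9.65 in WT_EC, and 9.69, 9.93 and 9.70 in ESC. For both genes the embryoid bodies were separate from all other arrays. Gstm1, of the mu class, had 11.61, 11.68 and 11.62 in null_EB, against 10.07, 10.13 and 10.12 in null_EC, 10.18, 11.25 and 11.25 in WT_EC, and 10.09, 10.10 and 10.08 in ESC. Among the other glutathione S-transferases, Gsta3 averaged 9.77 in null_EB and 8.48 in null_EC, Gsta4 11.75 and 10.71, and Gstm3 9.15 and 8.29, but WT_EC or ESC kept them short of the margin. Gstm2 averaged 11.04 in null_EB and 11.33 in null_EC, and Gstp1 12.83 and 12.56. The upstream windows of the neighbouring pair are given together for comparison, from chr19:47854723-47854972, plus strand (Gsto1) and chr19:47865295-47865544, plus strand (Gsto2, the first of 2 annotated starts), both in GRCm38.p6. Neither holds a motif match.
Gsto1: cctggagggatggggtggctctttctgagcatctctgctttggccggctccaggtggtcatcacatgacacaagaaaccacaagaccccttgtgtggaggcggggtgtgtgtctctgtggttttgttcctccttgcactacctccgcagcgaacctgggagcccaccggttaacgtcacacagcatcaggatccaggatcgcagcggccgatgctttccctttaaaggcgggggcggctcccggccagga
Gsto2: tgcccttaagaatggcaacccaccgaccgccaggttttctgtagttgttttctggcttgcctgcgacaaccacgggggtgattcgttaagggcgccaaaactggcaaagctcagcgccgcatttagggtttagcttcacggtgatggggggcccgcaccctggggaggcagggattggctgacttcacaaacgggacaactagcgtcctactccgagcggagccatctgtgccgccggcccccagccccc

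Slc7a11, the cystine-glutamate antiporter, had 10.94, 11.27 and 11.14 in null_EB, against 9.39, 8.73 and 8.95 in null_EC, 12.04, 9.81 and 7.87 in WT_EC, and 6.52, 6.29 and 6.30 in ESC. The first WT_EC array exceeded every embryoid body array, and the WT_EC arrays differed among themselves by more than the means of null_EB and null_EC did. Gclc, the catalytic subunit of the rate-limiting enzyme of glutathione synthesis, had 11.77, 11.97 and 11.91 in null_EB, against 11.25, 10.81 and 10.94 in null_EC, 10.99, 10.10 and 10.16 in WT_EC, and 11.04, 10.98 and 11.09 in ESC. Maoa, the mitochondrial monoamine oxidase A, had 11.70, 11.65 and 11.55 in null_EB, against 10.53, 10.40 and 10.41 in null_EC, 8.91, 11.39 and 9.68 in WT_EC, and 10.06, 9.78 and 10.10 in ESC. Gclc and Maoa were separate from all other arrays, whereas the aldehyde oxidase Aox1, at 10.54 in null_EB, had 10.69 on the second WT_EC array.

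**Figure D3:**
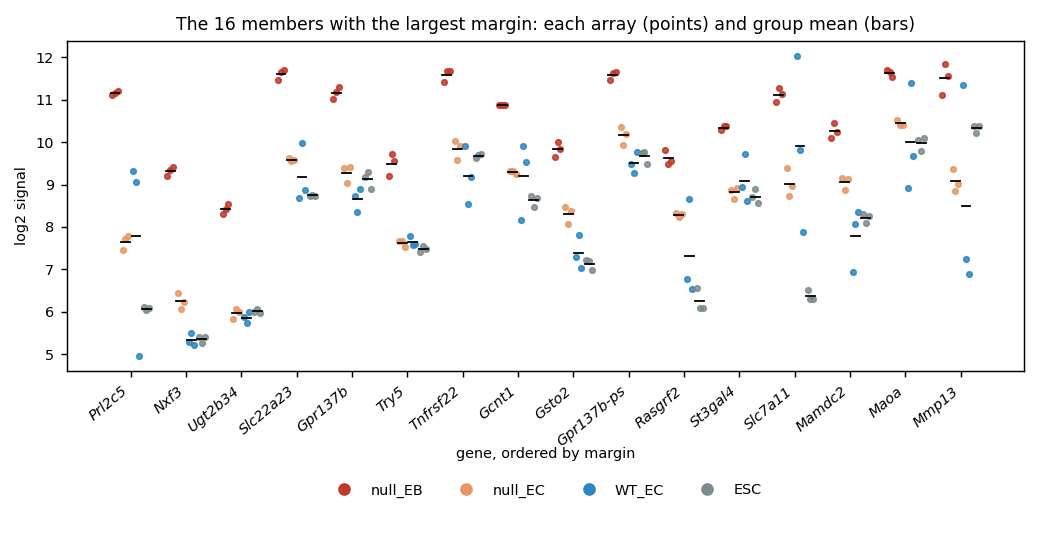
Log2 signal of the 16 genes with the largest margin, for each array (points) and group mean (bars). Of these 16, only Slc7a11 and Mmp13 have a WT_EC point inside or above the null_EB points, while null_EC and ESC points lie below them in every gene.

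The nuclear factors and RNA export genes were led by Nxf3, an X-linked member of the family of nuclear RNA export factors. It had 9.21, 9.34 and 9.41 in null_EB, against 6.45, 6.06 and 6.22 in null_EC, 5.29, 5.48 and 5.21 in WT_EC, and 5.4, 5.26 and 5.41 in ESC. Its mean was 8.43-fold above null_EC and 15.9-fold above WT_EC, and no other array came near the embryoid bodies. Its relatives did not share this pattern: Nxf1, the general export receptor for messenger RNA, averaged 11.40 in null_EB and 11.27 in null_EC, Nxf2 4.66 and 4.71, and Nxf7 5.72 and 5.95. Sox4, a transcription factor of progenitor cells, averaged 10.76 ± 0.07 in null_EB, 9.70 ± 0.13 in null_EC, 9.56 ± 0.04 in WT_EC and 9.0 ± 0.08 in ESC (SD, n = 3 each). Snai2 and Hmga2, both linked to mesenchymal states, averaged 10.72 and 11.68 in null_EB and 9.15 and 9.83 in null_EC. A WT_EC array overlapped with each of these 2 genes. Thrb, a thyroid hormone receptor, averaged 9.94 in null_EB and 9.18 in null_EC. The clock repressor Nr1d1 averaged 10.72 in null_EB and 9.98 in null_EC, and the chromatin protein Phf1 10.72 and 9.90.

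Transporters, death receptors and sugar-adding enzymes followed. Slc22a23, an orphan member of the organic ion transporter family, had 11.46, 11.66 and 11.71 in null_EB, against 9.62, 9.55 and 9.58 in null_EC, 8.69, 9.98 and 8.86 in WT_EC, and 8.74, 8.76 and 8.73 in ESC. No other array reached the null_EB values, and the 3 other transporters were closer: Slc29a1, which carries nucleosides, averaged 11.31 in null_EB and 9.70 in null_EC. The mitochondrial iron carrier Slc25a37 averaged 11.04 in null_EB and 10.11 in null_EC, and Abcc5, an exporter of cyclic nucleotides, 10.06 and 9.32. Tnfrsf22 and Tnfrsf23, neighbouring mouse decoy receptors for the death ligand TRAIL, were both in the set. Tnfrsf22 had 11.43, 11.67 and 11.67 in null_EB, against 10.02, 9.58 and 9.92 in null_EC, 9.92, 8.54 and 9.18 in WT_EC, and 9.62, 9.69 and 9.73 in ESC. Tnfrsf23 had 12.93, 12.96 and 12.93 in null_EB, against 12.35, 11.97 and 12.34 in null_EC, 12, 9.60 and 10.92 in WT_EC, and 10.42, 10.10 and 10.54 in ESC. Every embryoid body value of the pair was above all others. Also in the signalling group, the ATP-gated channel P2rx7 averaged 10.34 in null_EB and 9.30 in null_EC, and Ikbkg, a scaffold of the kinase that activates NF-kB, 9.81 and 9.09. Il10, an anti-inflammatory cytokine, averaged 7.03 in null_EB and 5.99 in null_EC, so that even its highest group lay below 8.01, the median of all gene values.

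Gcnt1, which starts core 2 branches on O-glycans, had 10.88, 10.88 and 10.87 in null_EB, against 9.31, 9.33 and 9.25 in null_EC, 8.17, 9.90 and 9.52 in WT_EC, and 8.74, 8.47 and 8.69 in ESC. St3gal4, a sialyltransferase, had 10.28, 10.39 and 10.37 in null_EB, against 8.88, 8.67 and 8.92 in null_EC, 8.93, 9.71 and 8.62 in WT_EC, and 8.70, 8.89 and 8.55 in ESC. Both enzymes build cell surface glycans, and for both the embryoid bodies were above all other arrays, while null_EC and WT_EC overlapped. St3gal1, another sialyltransferase, averaged 11.31 in null_EB and 11.46 in null_EC.

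Regulators of small GTPases made up 5 genes, and all were separate from the 9 other arrays. Rasgrf2, an exchange factor for Ras and Rac, had 9.82, 9.48 and 9.55 in null_EB, against 8.33, 8.24 and 8.30 in null_EC, 6.78, 8.65 and 6.53 in WT_EC, and 6.55, 6.10 and 6.09 in ESC. Arhgap27, a GTPase-activating protein, had 9.27, 9.76 and 9.79 in null_EB, against 8.22, 8.13 and 8.23 in null_EC, 8.59, 8.64 and 8.19 in WT_EC, and 8.35, 8.25 and 8.19 in ESC. A second probe set for Arhgap27 averaged 9.01 in null_EB and 7.95 in null_EC. The exchange factor Rasgef1b averaged 8.28 in null_EB and 7.23 in null_EC, the Ras GTPase-activating protein Rasa1 11.68 and 10.82, and the Arf GTPase-activating protein Asap2 10.48 and 9.77.

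Several receptors and signalling proteins were also in the set, with the other groups in differing orders. Npy4r, the receptor for pancreatic polypeptide, had 7.99, 7.89 and 7.95 in null_EB, against 6.68, 6.68 and 6.74 in null_EC, 6.82, 7.09 and 6.40 in WT_EC, and 6.61, 6.52 and 6.50 in ESC. Itpr3, a calcium channel of the endoplasmic reticulum, had 11.24, 11.42 and 11.44 in null_EB, against 10.40, 10.11 and 10.32 in null_EC, 9.14, 9.69 and 9.78 in WT_EC, and 9.84, 9.91 and 9.68 in ESC. The embryoid bodies were clear of the other arrays for both, although Npy4r lay below the median of all gene values even there. Irs1, the adaptor of the insulin and IGF-1 receptors, had 10.11, 10.07 and 10.17 in null_EB, against 9.12, 8.99 and 9.02 in null_EC, 7.68, 9.68 and 8.01 in WT_EC, and 8.0, 8.10 and 7.78 in ESC. A second, dim probe set for Irs1, with means of 5.53 in null_EB and 5.45 in null_EC, did not show the difference. Irs2, its relative, averaged 9.46 in null_EB and 9.63 in null_EC. The MAP kinase phosphatase Dusp4 had 11.03, 11.12 and 11.15 in null_EB, against 10.22, 9.78 and 10.10 in null_EC, 10.56, 9.87 and 9.06 in WT_EC, and 8.29, 8.52 and 8.20 in ESC. Htr1b, a serotonin receptor, averaged 9.66 in null_EB and 8.10 in null_EC, Cav2, a caveolar protein, 10.01 and 8.90, Plscr4, of the phospholipid scramblase family, 10.82 and 9.90, and Vps37b, an ESCRT-I subunit, 9.10 and 8.37. The odorant receptor gene Olfr266 averaged 7.06 in null_EB and 5.99 in null_EC, a low signal in both.

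Integrins and other surface proteins contributed 6 genes. Itgb8, a partner of the alpha v chain that activates latent TGF-beta, had 10.53, 10.41 and 10.40 in null_EB, against 9.52, 9.60 and 9.36 in null_EC, 8.37, 8.38 and 8.68 in WT_EC, and 8.31, 8.08 and 8.48 in ESC. Itgb3, another partner of alpha v, had 9.84, 9.82 and 9.83 in null_EB, against 8.48, 8.34 and 8.48 in null_EC, 9.75, 9.04 and 8.52 in WT_EC, and 8.81, 8.74 and 8.83 in ESC. Itga10, a collagen-binding chain, had 9.42, 9.79 and 9.83 in null_EB, against 8.76, 9.03 and 8.78 in null_EC, 7.67, 9.71 and 8.24 in WT_EC, and 7.33, 7.53 and 7.40 in ESC. The 2 beta chains were separate from all other arrays, and the second WT_EC array overlapped for Itga10. Of the chains outside the set, Itgb4 averaged 9.03 in null_EB and 8.07 in null_EC and Itga6 10.23 and 9.31, whereas Itga1 averaged 8.43 and 10.28 and Itga11 8.02 and 9.29. Neto2, an auxiliary subunit of kainate receptors, averaged 10.97 in null_EB and 9.06 in null_EC, the semaphorin receptor Plxna3 9.30 and 7.99, and the protocadherin Pcdh17 8.98 and 8.22.

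Lipid and mitochondrial genes, grouped here with the salvage enzyme Mtap, differed from null_EC by 0.71 to 0.88 log2 units over 6 genes. Plin2, which coats lipid droplets, averaged 12.67 ± 0.14 in null_EB, 11.81 ± 0.24 in null_EC, 11.78 ± 0.41 in WT_EC and 10.29 ± 0.12 in ESC (SD, n = 3 each). Lpin2, a phosphatidate phosphatase, averaged 10.11 ± 0.08, 9.23 ± 0.04, 8.65 ± 0.03 and 8.65 ± 0.03 in the same groups. The acyl-CoA thioesterase Acot1 averaged 8.95 in null_EB and 8.08 in null_EC, the salvage enzyme Mtap 11.69 and 10.84, and the mitochondrial carbonic anhydrase Car5b 9.38 and 8.68. The coactivator Ppargc1a averaged 7.97 in null_EB and 7.26 in null_EC, and its second probe set 7.37 and 6.23.

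Among structural proteins, Sprr1a, a cornified envelope precursor, had 9.78, 9.61 and 9.79 in null_EB, against 8.21, 8.35 and 8.12 in null_EC, 9.72, 8.0 and 8.16 in WT_EC, and 7.83, 7.65 and 7.61 in ESC. The troponin T gene Tnnt2 averaged 10.57 in null_EB and 9.03 in null_EC. Atat1, the alpha-tubulin acetyltransferase, is an enzyme grouped here with the structural proteins, and averaged 9.79 in null_EB and 8.85 in null_EC. The first WT_EC array overlapped for Sprr1a. For Samd5, Npn2 and Lurap1l no role is given here. Samd5 had 9.47, 9.39 and 9.51 in null_EB, against 7.76, 7.96 and 7.78 in null_EC, 7.58, 10.29 and 6.99 in WT_EC, and 8.40, 8.26 and 8.39 in ESC. Npn2 had 8.73, 8.70 and 8.53 in null_EB, against 7.59, 7.54 and 7.57 in null_EC, 6.41, 6.81 and 6.57 in WT_EC, and 5.67, 6.46 and 5.77 in ESC. Samd5 is another gene in which the second WT_EC array was the highest of the 12, and Lurap1l averaged 10.43 in null_EB and 9.05 in null_EC.

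The noncoding RNAs were Pvt1, a long noncoding RNA gene next to Myc, and Mir125b-1, a microRNA gene on chromosome 9. Pvt1 averaged 10.10 in null_EB and 9.36 in null_EC, and its second probe set, with means of 3.74 and 3.78, did not show the difference. Mir125b-1 had 8.98, 8.74 and 8.73 in null_EB, against 7.98, 7.99 and 7.86 in null_EC, 8.67, 8.0 and 7.5 in WT_EC, and 7.90, 7.58 and 7.91 in ESC. The first WT_EC array came close to the embryoid bodies but stayed below them. Both mature products of the gene, which the probe set does not measure apart from the precursor, are printed from RefSeq (GRCm38.p6, plus strand, chr9:41581940-41581961 and chr9:41581980-41582001) with the seed, bases 2 to 8, in capitals. The seeds differ between the arms.
miR-125b-5p: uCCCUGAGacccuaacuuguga
miR-125b-1-3p: aCGGGUUAggcucuugggagcu

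In all, 12 of the 68 genes overlapped with another group, and each time the overlapping array was from WT_EC. The first WT_EC array reached at least the lowest embryoid body value for Slc7a11, Mmp13, Sprr1a and Hmga2. The second did so for Samd5, Snai2, Acot1, Itga10, Aox1, Fetub, Pcdh17 and Car5b. The third did so for 0 genes. The wild-type cells thus reached the embryoid body signal on 1 array at a time, for different genes, and the null_EC and ESC arrays did not reach it for any of the 68. The WT_EC arrays also differed in leukocyte markers, as given above, and the part of this in the overlaps was not tested.

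The comparisons without an embryoid body array ask how the same genes stand in the other groups. The selection used the same group means: it kept no gene that was highest in null_EC, WT_EC or ESC, and so left out many genes with a large increase in one of these groups. The counts of calls are therefore shaped in part by the selection. They are given with the share of all genes beside them, and nothing about the 68 as a set is read from the difference. They were tested with limma on all 12 arrays, with p-values adjusted by Benjamini-Hochberg over 19938 genes and a gene called at an adjusted p below 0.05.

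In null_EC against WT_EC, 12 of the 68 genes (17.6%) were higher in the null cells, against 8.12% of all genes, and 3 (4.41%) were lower, against 5.0% of all genes. The median difference was 0.16 log2 units over the 68 and 0.03 over all genes. Among the called genes, the largest increases were in Mamdc2, with 9.05 ± 0.16 in null_EC and 7.79 ± 0.75 in WT_EC (SD, n = 3 each), a log2 difference of 1.27 (SE 0.28, limma adjusted p = 0.014), and in Itgb8, with a difference of 1.01 (SE 0.12, limma adjusted p = 0.000315). Npn2 rose by 0.97, Gsto2 by 0.93 and Nxf3 by 0.91, and for these genes, as for Mamdc2 and Itgb8, the 3 null_EC arrays lay above the 3 WT_EC arrays. Nxf3 averaged 6.24 ± 0.20 in null_EC and 5.33 ± 0.14 in WT_EC (SD, n = 3 each). Gpr137b and Gpr137b-ps, with 0.61 and 0.66, were also called higher, as were Itpr3, Lpin2, Phf1, Ppargc1a and Mtap. The decreases were in Neto2, with 9.06 ± 0.25 in null_EC and 10.14 ± 0.20 in WT_EC (log2 difference -1.08, SE 0.18, limma adjusted p = 0.00298), in Gstm1 (-0.78) and in Tnnt2 (-0.68). Tnfrsf23, with a larger difference of 1.38, was not called (limma adjusted p = 0.066), nor were Ugt2b34, at 5.96 in null_EC and 5.86 in WT_EC, and Prl2c5, at 7.65 and 7.77. These counts rest on single arrays, and those over all genes moved as well. Without the second WT_EC array 22 genes were higher and 3 lower (3422 and 2013 of all genes), without the first 16 and 8 (2008 and 1446), and without the third 13 and 8 (1892 and 1209). Without the first null_EC array 6 were higher and 1 lower (756 and 579 of all genes), and without the third 7 and 1 (855 and 594). Without the second null_EC array, the third null_EB array or any single ESC array, 1 gene was lower (665, 836 and 826 to 872 of all genes). Gstm1 and Tnnt2 lost their call, with the same sign, under many of these omissions, and Mamdc2 lost it without the first or the third null_EC array. With the 6 arrays of these groups alone, Mamdc2, Gsto2, Gstm1 and Tnnt2 were not called. With 1 weight per group, a fit chosen after seeing the data, Npn2, Gsto2, Neto2 and Tnnt2 were not called. Itgb8 and Nxf3 kept their call in every alternative.

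In ESC against null_EC, 32 of the 68 genes (47.1%) were lower in the stem cells, against 25.1% of all genes, and 2 were higher, against 22.9% of all genes. The median difference was -0.48 log2 units over the 68 and -0.09 over all genes. Plscr4 had 6.93 ± 0.11 in ESC and 9.90 ± 0.08 in null_EC (SD, n = 3 each), a 7.85-fold lower signal with a log2 difference of -2.97 (SE 0.17, limma adjusted p = 1.10e-07). Slc7a11 fell by 2.66, Thrb fell by 2.65, Aox1 fell by 2.18 and Rasgrf2 fell by 2.04 on the log2 scale, and the groups did not overlap for any of the 5. The increases were in the nucleoside carrier Slc29a1, with 10.58 ± 0.15 in ESC and 9.70 ± 0.07 in null_EC (log2 difference 0.89, SE 0.22, limma adjusted p = 0.00607), and in Plxna3, with 8.52 and 7.99. Of the genes with the largest margins, Nxf3 fell by 0.89 and Slc22a23 fell by 0.84, and Ugt2b34, at 6.01 in ESC and 5.96 in null_EC, was not called. Fitted without the WT_EC arrays, 9 genes were higher in ESC than in null_EC, against 29.4% of all genes, and 43 were lower, against 37.4% of all genes. Leaving out the first or the second WT_EC array alone gave 6 and 5 higher (5202 and 5052 of all genes). Shifting the arrays to equal housekeeping signal moved the median of all genes in this comparison by -0.19, and the share of higher genes among all called ones was 27.3% with the shift and 47.7% without it. Plxna3 was no longer called with the shift.

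In ESC against WT_EC, 21 genes (30.9%) were lower in the stem cells, against 21.7% of all genes, and 4 were higher, against 25.4% of all genes. Slc7a11 had 6.37 ± 0.13 in ESC and 9.91 ± 2.09 in WT_EC (SD, n = 3 each; log2 difference -3.54, SE 0.75, limma adjusted p = 0.00253), and even the lowest WT_EC array was above the ESC arrays. Plscr4 fell by 2.98, Aox1 fell by 2.36, Thrb fell by 2.15 and Neto2 fell by 2.01. The 4 increases were small, 0.62 in Gclc, 0.55 in Plxna3, 0.48 in Atat1 and 0.46 in Gpr137b, and none of them was called after the housekeeping shift or with the 6 arrays of these groups alone. With that shift the share of higher genes among all called ones was 30.4%, and 53.9% without it. The ESC arrays serve in both stem cell comparisons, so their counts are not independent. Leaving out ESC array 1, 2 or 3 left 1, 1 and 2 genes called higher than in WT_EC, and without the second WT_EC array there were 8 (5535 of all genes). Over all omissions of a single array, 4482 to 5535 of all genes were called higher in ESC than in WT_EC.

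**Figure D4:**
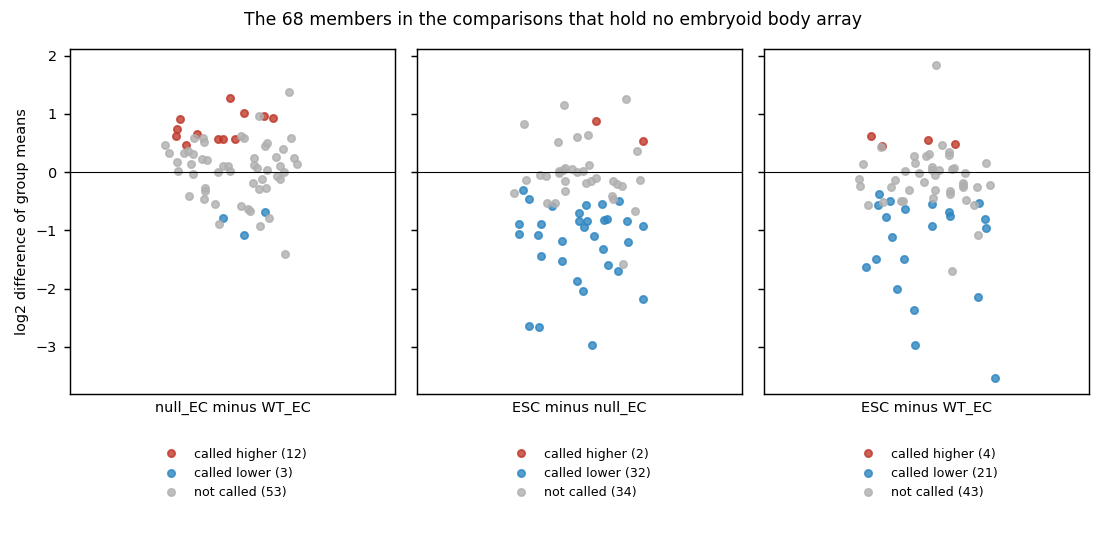
Log2 differences of group means for the 68 genes in the comparisons without an embryoid body array; each point is a gene, spread sideways at random, with genes at an adjusted p below 0.05 in colour. Calls lower in ESC against null_EC (32) outnumber those higher (2), and in null_EC against WT_EC there are 12 higher and 3 lower.

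Genes of the same pathways that are not among the 68 were tested in null_EB against null_EC, the comparison of embryoid bodies with monolayer cells of the same genotype. Higher and lower refer here to null_EC alone. Of the genes named below as higher with all 12 arrays, some had a still higher mean in WT_EC or ESC. These were Abcc4, Blvrb, Gsta4, Ces2g, Nup155, Trib2, Ptgs2, Nfkbiz and Jam2. Nqo1, Cbr3, Ephx1, Btg1, Sesn2, Nr1d2 and Vcam1 had their highest mean in null_EB. In the fit over 12 arrays, 2.9% of all genes were higher and 2.5% lower. Without the uneven WT_EC arrays, a fit chosen after seeing the data, these shares were 13.7% and 11.7%, so the counts of each list are given from both. Over all lists 18 genes were higher and 12 lower. Without WT_EC array 1, 2 or 3, the higher ones numbered 46, 32 and 34, without any single null_EC or null_EB array 7 to 9, and without the first or the third ESC array 11. The lower ones numbered 28 without the first WT_EC array and 7 without the second null_EC or the second null_EB array. Calls over all genes moved as well, with 188 to 1398 higher and 202 to 1278 lower when a single array was left out. The housekeeping shift moved the median of all genes in this comparison by 0.10, and the share of higher genes among all called ones was 75.0% with it and 53.7% without it.

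NRF2 targets had the highest median difference among the lists. Besides the members Slc7a11, Gstm1 and Gclc, 21 genes of this list were measured, among them Nfe2l2, the gene of NRF2 itself, and Keap1. Of the 21, 5 were higher and 0 lower (0 lower also at an unadjusted p below 0.05). Their median difference was 0.48 log2 units, against -0.01 for all genes. Without the WT_EC arrays 15 of the 21, Nfe2l2 (0.23) among them, were higher and 1, Mgst1, was lower. Of the 21 differences 19 were positive. So were 23 of 25 in the proliferation list and 9 of 10 for the glucuronosyltransferases, so such agreement was not particular to NRF2 targets. The quinone reductase Nqo1 had 8.93, 9.02 and 8.79 in null_EB and 7.39, 6.87 and 7.30 in null_EC, a log2 difference of 1.72 (SE 0.43, limma adjusted p = 0.0442). The exporter Abcc4 rose by 1.43, and Blvrb, a biliverdin reductase, by 1.31 (SE 0.14, limma adjusted p = 0.000482). Both were higher still in ESC, with means of 10.70 and 11.14, against 9.86 and 10.51 in null_EB. The other 2 called were Gsta4 (1.04) and the carbonyl reductase Cbr3 (1.2), which is named after its value was seen. Nqo1 lost its call in 11 of 21 alternatives, Abcc4 in 10 and Gsta4 in 9, among them the omission of any single null_EB, null_EC or ESC array, whereas Blvrb lost it in 0. Hmox1 and Txnrd1, also classic targets, had differences of 0.61 and 0.48 and were called in the fit without the WT_EC arrays but not with all 12. The first WT_EC array was far above the others for several of these genes, such as Srxn1 with 11.42 there and 9.36 and 9.14 on the other 2. Keap1 did not pass the test in either fit, with 9.07 in null_EB and 8.99 in null_EC.

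**Figure D5:**
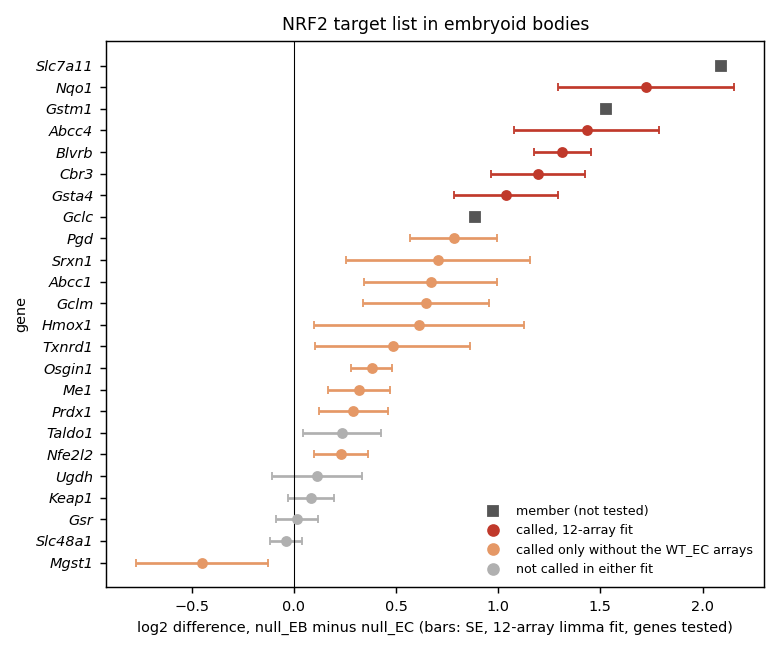
Log2 difference between null_EB and null_EC for the 24 measured genes of the NRF2 target list, which includes Nfe2l2, the gene of NRF2 itself, and Keap1. Bars are standard errors of the 12-array fit, squares are genes of the set, which were not tested, and colours give the call; 5 circles are called with all arrays and others only without WT_EC.

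The other lists were mixed. Among 42 drug and steroid metabolism genes other than Gstm1, 3 were higher and 3 lower: Ces2g (1.31), Ephx1 (1.29) and Gsta4 rose, and Cyp7b1 (-1.15), Nnmt (-0.66) and Aldh3b1 (-0.56) fell. Aldh3b1 lost its call in 13 of 21 alternatives, among them any single null_EB, null_EC or ESC array left out, and Cyp7b1 in 5, without any null_EC array or the second or the third null_EB array. Without the WT_EC arrays 8 were higher and 10 lower. Beside Nxf3, 1 of 24 other mRNA export genes was higher, the nucleoporin Nup155 (0.45), and 0 were lower in the limma fit (1 at an unadjusted p below 0.05), against 7 and 1 without the WT_EC arrays. Beside Nr1d1, its paralog Nr1d2 (0.55) was the 1 higher gene of 16 of the circadian list, and 0 were lower (0 at an unadjusted p below 0.05), against 7 and 0 without the WT_EC arrays. Nup155 lost its call without any single null_EB or null_EC array, and so did Nr1d2, which also lost it without the first or the third ESC array. Of 43 genes of the FoxO and starvation response, which held none of the 68, 5 were higher and 1 lower, led by Trib2 (1.5), Btg1 (1.05) and Sesn2 (0.82) on one side and Gadd45b (-1.30) on the other. Sesn2 lost its call in 11 of 21 alternatives, among them any single null_EB, null_EC or ESC array left out, and Trib2 in 3, without the first or the third null_EC array or the second null_EB array. Without the WT_EC arrays 13 were higher and 10 lower. Btg1 missed the set by a margin of 0.67. Of 27 inflammatory NF-kB targets, Ptgs2 (2.07), Vcam1 (1.2) and Nfkbiz (0.85) were higher, and Saa3 (-3.93) and Lcn2 (-1.96) were lower, and without the WT_EC arrays 7 were higher and 4 lower. Ptgs2 lost its call without any single null_EB or null_EC array.

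Glucocorticoid targets had a median of -0.35 over 25 genes, with 0 higher (3 at an unadjusted p below 0.05) and 2 lower, Lcn2 and Tgm2 (-1.83). Without the WT_EC arrays 4 were higher and 15 lower. Cell junction genes were lower in 5 and higher in 1 of 38, with Cldn15 (-1.16), F11r (-0.96) and Cdh11 (-0.89) lower and Jam2 (0.95) higher. Cldn15 and Jam2 lost their call without any single null_EB, null_EC or ESC array, and F11r without any null_EC array or the second or the third null_EB array. Without the WT_EC arrays 2 were higher and 13 lower. Of 32 lysosomal genes 0 were called in either direction in the limma fit, with 1 higher and 1 lower at an unadjusted p below 0.05, and 3 higher and 3 lower without the WT_EC arrays. Of 25 proliferation genes 0 were called with all arrays, 6 were higher at an unadjusted p below 0.05, and 11 were higher and 0 lower without the WT_EC arrays. Their median difference was 0.25 log2 units.

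Upstream sequence was searched in the RefSeq windows of 250 bases before to 50 after each gene's start, which were at hand for 51 of the 68 genes, in 74 windows. Nxf3 was among the 17 without a window. The antioxidant response element TGACNNNGC, the site type of NRF2, was found on either strand in 13.5% of the 74 windows and in 12.4% of all 32851 windows. The genes with it were Fetub, Ikbkg, Irs1, Npy4r, P2rx7, Rasgef1b, Slc29a1, Sprr1a and Thrb. Gclc, Slc7a11 and Gstm1, the genes of the set on the NRF2 target list, were not among them. The KLF-type CACCC box CCACACCC was found in 9 windows, 12.2%, against 3.56% of all. These lay in Arhgap27, Gstm1, Htr1b, Ikbkg, Itpr3, Npy4r, Plxna3 and Slc29a1. The forkhead core GTAAACA was in 6.76% against 3.65%, the E-box CACGTG in 10.8% against 7.15%, the AP-1 site TGACTCA in 9.46% against 5.20%, and the TATA box TATAAA in 10.8% against 13.6%. The D-box TTANGTAA was in 1.35% against 2.32%, and the glucocorticoid response element, a degenerate repeat, in 0 of 74 windows against 0.414%. Some genes have several overlapping windows, and TGACTCA can overlap with the antioxidant element, so these shares describe letters and not binding.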

How the data were processed

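Each array gave a log2 signal for every probe set. Per the submitters' processing notes, the authors computed these deposited log2 values with Affymetrix Expression Console 1.2.1 and RMA (background correction, quantile normalization and summary by median polish). The labels' protocol names a human array, but the probe sets match the mouse gene-level platform. Of 35556 probe sets, 21789 named 1 gene, 1621 several and 12146 none; only the first were used, and the brightest on average stood for each of the 999 genes with several. Depth does not apply to arrays: 3 per group limit the precision.

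A mean per group was fitted with limma 3.58.1 (R 4.3.3; lmFit and eBayes), without covariates. P-values were adjusted by Benjamini-Hochberg. On simulated data 83% to 88% of 2-fold and 94% to 98% of 4-fold changes were recovered. The simulation gave every group the same spread, unlike the looser WT_EC arrays here, so these rates may not hold for these data. The genes and lists were chosen with earlier results of these data known. Named by rule were the 25 largest margins (odorant receptors and small RNAs left out), genes sharing a family, the 5 genes on each side of the margin, up to 5 called genes a direction and up to 3 a list. Symbols matched RefSeq (GRCm38.p6) for 67 of the 68 genes, all but Npn2. Alternatives were other array sets, weights, variance models, a dim-gene filter (3 or more arrays at a log2 of 6 or above), a housekeeping shift, single probe sets, a replicate block and leaving out each array.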

Additional observations from a re-analysis of the deposited data

Results flagged for a closer look

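Probe sets without a gene of their own were outside the comparisons, and some of them met the same margin. Of 1621 probe sets that name several genes, 7 had an embryoid body mean at least 0.7 above each other group. The proliferin probe set shared by Prl2c2, Prl2c3 and Prl2c4 was 1 of them, with a margin of 3.31. A further 5 share Speer4 genes, a family of testis-expressed proteins; the strongest had 8.19, 8.54 and 8.26 in null_EB, between 5.88 and 5.97 in null_EC, between 5.44 and 6.49 in WT_EC, and between 5.44 and 5.5 in ESC. The last shares Gsta1 and Gsta2, at 6.37 in null_EB and 5.54 in null_EC. Of 12146 probe sets that name no gene, 39 met the margin, the largest at 2.38. These shares, 0.432% and 0.321%, lie beside 0.356% for genes with a probe set of their own (71 of 19938).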

How the results depend on the processing

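The counts depended most on which arrays set the spread. With the 6 arrays of the groups compared alone, 4 of the 68 genes were higher and 1 lower in null_EC against WT_EC (289 and 299 of all genes). Fitted this way, 9 were higher in ESC against null_EC (5821 of all genes). In ESC against WT_EC 0 were higher and 12 lower (3803 and 2447 of all genes). In null_EB against null_EC this fit called 80 pathway list genes higher and 54 lower (3000 and 2464 of all genes), against 18 and 12 with all arrays (578 and 499 of all genes). Array quality weights gave 87 and 64 (4254 and 3747 of all genes), with 9 of the 68 higher in ESC against null_EC (6174 of all genes, and 8142 lower). With 1 weight per group, chosen after seeing the data, there were 5 higher and 1 lower in null_EC against WT_EC (774 and 757 of all genes). This setting gave 9 higher in ESC against null_EC (5820 of all genes, and 7579 lower) and 2 higher in ESC against WT_EC (4091 of all genes). It called 75 pathway list genes higher and 46 lower (2900 and 2464 of all genes). Without the WT_EC arrays, also chosen later, 9 genes were higher in ESC against null_EC (5862 of all genes). That fit called 75 pathway list genes higher and 52 lower (2728 and 2330 of all genes). After the housekeeping shift 1 gene was lower in null_EC against WT_EC (878 of all genes). With this shift 1 was higher in ESC against null_EC and 0 in ESC against WT_EC (3453 and 3784 of all genes). There, 9210 and 8663 of all genes were lower, and in null_EB against null_EC 903 were higher and 301 lower. The gene set held 155 genes at a margin of 0.5, 31 at a margin of 1, 108 after the housekeeping shift and 63 to 75 when an array was left out.

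With single arrays left out, calls of the 68 were 6 to 22 higher and 1 to 8 lower in null_EC against WT_EC (756 to 3422 and 579 to 2013 of all genes), 2 to 6 higher and 25 to 37 lower in ESC against null_EC (4031 to 5202 and 3955 to 6218 of all genes), and 1 to 8 higher and 15 to 29 lower in ESC against WT_EC (4482 to 5535 and 3412 to 5661 of all genes). Pathway list genes were 7 to 46 higher and 7 to 28 lower in null_EB against null_EC (188 to 1398 and 202 to 1278 of all genes). Of 49 named gene results, 25 kept their call in every alternative, 24 lost it in at least 1, and 0 changed sign. In many alternatives, such as the replicate block or omission of another group's array, the difference itself stayed the same. Its sign could not change there. The replicate numbers in the labels did not pair the arrays: same-numbered arrays correlated in their deviations between -0.26 and 0.23, with 3 of 18 pairs over 0.1. With the replicate number as a block, 12 of the 68 genes were higher and 3 lower in null_EC against WT_EC (1353 and 886 of all genes). The block left 31 lower in ESC against null_EC (4687 of all genes), and 397 of all genes higher in null_EB against null_EC. The causes of these differences between settings were not tested. Low signal limits Il10, Olfr266, Npy4r and Ppargc1a, which lay below the median of all gene values in every group.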
